A study of Mus musculus with 48 samples.

Results

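The CXC chemokines are small secreted or membrane-bound proteins that draw leukocytes into tissue. The family was taken as 10 named genes out of the 24411 in the deposited table: the neutrophil attractants Cxcl1, Cxcl2, Cxcl3 and Ppbp, the platelet chemokine Pf4, the interferon-induced Cxcl9 and Cxcl10, the B cell attractant Cxcl13, and Cxcl14 and Cxcl16. Of these 10, 9 passed the filter on low counts and were tested, and Cxcl1 did not pass. The mRNA was measured in macrophages of the airspaces, washed from the lungs of male mice by bronchoalveolar lavage (BAL). The mice either lacked Siglec-F (knockout, KO), which alveolar macrophages carry on their surface and which binds sialic acids, or were wild type (WT). In each genotype 1 group was naive (day 0, with saline listed as its treatment), and 3 groups received bleomycin, a drug that injures the lung, into the trachea at 2.5 units/kg and were sampled at day 7, 14 or 21. Each of the 8 groups held 3 mice, 24 in all, and no group carried any other listed allele or agent. The sources used here give neither the age of the mice nor how the allele was made, and they do not say whether macrophages were purified from other BAL cells.

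CXC chemokines carry their first conserved cysteines with a single residue between them. Members with an ELR motif before these cysteines act through Cxcr2 on neutrophils, and the interferon-induced members act through Cxcr3 on activated T and NK cells. Macrophages of the airspaces are a known source of several of them after lung injury.

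The libraries held 24877049 to 47457085 estimated counts. Levels are given in CPM, the count of a gene per 1000000 counts of its library, with the library size normalized by edgeR's TMM method. Siglecf, the targeted gene, was at 0 to 0.577 CPM in the 12 KO mice, against 403 to 481 CPM in the naive WT mice and 66.3 to 155 CPM in the WT bleomycin mice. The summed level of 10 markers of resident alveolar macrophages was 7146 to 22810 CPM after bleomycin and 20660 to 27770 CPM in naive mice, and each of the 10 was detected in every group. The summed level of 10 markers of recruited monocytes and macrophages was 1388 to 8452 CPM after bleomycin and 117 to 165 CPM in naive mice. Within the bleomycin libraries, KO day 14 mouse 3 and KO day 21 mouse 1 had the lowest recruited marker sums, at 1388 and 1528 CPM, and results that rest on them are also given without them. WT day 7 mouse 3 had 85.3 CPM of Sftpc, the surfactant protein C gene of the alveolar epithelium, against at most 16.3 CPM in any other library.

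Of the 10 genes, 8 lie on mouse chromosome 5 (GRCm38, the mm10 build). Ppbp (90768518-90770063), Pf4 (90772435-90773383), Cxcl3 (90786103-90789600), Cxcl1 (90891241-90893115) and Cxcl2 (90903871-90905938) form a cluster on the plus strand. Cxcl9 (92321347-92328079) and Cxcl10 (92346638-92348889) lie side by side on the minus strand, and Cxcl13 (95956951-95961068) lies farther along on the plus strand. Cxcl14 is on chromosome 13 (56288643-56296551) and Cxcl16 on chromosome 11 (70453983-70459984), both on the minus strand. Cxcl10 overlaps Art3 and Cxcl16 overlaps Zmynd15 on the opposite strand. The sources used here do not say whether counting used the strand, so reads of such pairs cannot be told apart. Art3 reached at most 0.177 CPM and Zmynd15 at most 7.94 CPM in any mouse, and Zmynd15 was at 0.487 to 7.94 CPM after bleomycin and at most 0.208 CPM in naive mice. Cxcl1, Cxcl2 and Cxcl3 are close paralogs, so their low counts are uncertain to the extent that reads were shared among them.

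Promoter sequences are shown for the members with an NF-kB type site, since Cxcl2 and Cxcl3 moved one way after bleomycin and Cxcl10 the other. RefSeq promoters (GRCm38.p6) were found for 9 of the 10 genes, Cxcl16 being the one without. The 250 bases before each start were searched on both strands for 4 motifs. The NF-kB type motif was GGGA and TTCC with 2 free bases between them, and the interferon-stimulated response element was GAAA and GAAA with 2 free bases between them. The interferon gamma-activated site was TTC and GAA with 3 free bases between them, and the TATA box was TATAAA. Among 32851 RefSeq promoters, 1.21% held the NF-kB type motif, 2.98% the response element, 7.02% the activated site and 12.4% the TATA box. The lines below run 5′ to 3′ on the strand of the gene, with motif matches in capitals.
Cxcl1, chr5:90891154-90891204, plus strand: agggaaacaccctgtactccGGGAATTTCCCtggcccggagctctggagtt
Cxcl2, chr5:90903782-90903832, plus strand: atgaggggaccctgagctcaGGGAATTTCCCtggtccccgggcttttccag
Cxcl3, chr5:90786008-90786058, plus strand: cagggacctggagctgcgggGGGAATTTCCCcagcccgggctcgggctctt
Cxcl10, chr5:92349019-92349122, minus strand: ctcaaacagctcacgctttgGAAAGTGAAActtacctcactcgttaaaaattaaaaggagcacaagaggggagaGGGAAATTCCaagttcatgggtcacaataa

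In Cxcl1, Cxcl2 and Cxcl3 the capitals are the same run of letters, which holds 2 overlapping matches to the NF-kB type motif. Its first base lay 71 bases before the start in Cxcl1, 97 in Cxcl2 and 73 in Cxcl3. In Cxcl10 the first capitals match the interferon-stimulated response element, 213 bases before the start, and the second match the NF-kB type motif, 159 bases before it. Cxcl14 also held the response element and the interferon gamma-activated site, and Cxcl3, Ppbp, Cxcl9 and Cxcl13 held the TATA box. None of the 4 motifs was found in the window of Pf4. These are matches of letters in a short window, and binding was not measured.

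Bleomycin shifted the family in both directions. Cxcl16 rose at every day in both genotypes, Cxcl10 rose most at day 7, Pf4 rose in WT mice at every day and in KO mice at days 7 and 21, and Cxcl3 fell in WT mice at every day and in KO mice at day 21. Fewer cells of a type and less RNA per cell cannot be told apart in these bulk samples. Differences were tested with edgeR's quasi-likelihood test over 12634 genes, and "called" means an adjusted p (Benjamini-Hochberg) under 0.05. In KO mice at day 7, 4 of the 9 tested members were called higher and 0 lower, with 19.7% of all tested genes called higher and 14.4% lower. One of the 4 was Ppbp, which with Cxcl13 passed the filter on low counts through bleomycin mice, and among the other 7 members 3 were called higher there. Neither gene was called against naive in any other group. In KO mice at day 14, 2 were higher and 0 lower, with 12% of all genes higher and 4.84% lower. In KO mice at day 21, 2 were higher and 1 lower, with 15% of all genes higher and 6.89% lower. In WT mice at day 7, 4 were higher and 2 lower, with 20.2% of all genes higher and 15.3% lower. In WT mice at day 14, 4 were higher and 1 lower, with 18.7% of all genes higher and 13.4% lower. In WT mice at day 21, 3 were higher and 1 lower, with 18.8% of all genes higher and 13.7% lower. The days of a genotype share the same 3 naive mice, so their changes are not independent. Between genotypes no member was called at any time.

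**Figure D1:**
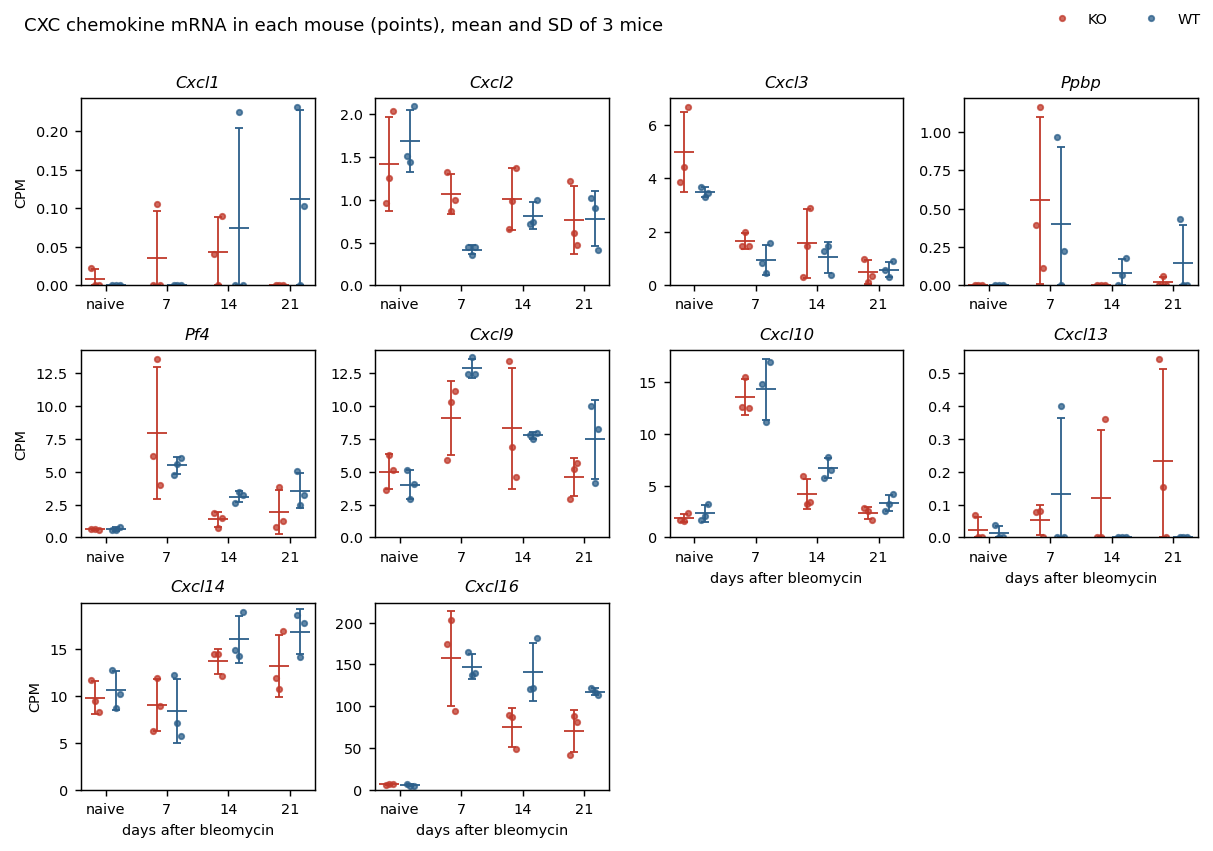
Level of each CXC chemokine gene in CPM (vertical axis, linear, each panel with its own scale) in naive mice and 7, 14 and 21 days after bleomycin, KO in red left of WT in blue. Points are mice, wide lines are means and bars are SD of 3 mice, cut at 0. Cxcl16 stands at 41.1 to 203 CPM in all bleomycin mice and at 4.18 to 6.88 CPM in all naive mice.

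Levels of different genes were compared per length, as CPM per kilobase of the longest coding transcript. In naive mice Cxcl14 was the most abundant member, at 5.36 ± 0.948 CPM per kilobase in KO and 5.78 ± 1.12 in WT mice (SD, n = 3 each). Cxcl3 came next, at 4.91 ± 1.46 in KO and 3.44 ± 0.184 in WT mice, and in KO mice Cxcl3 and Cxcl14 did not differ beyond their spread. After bleomycin Cxcl16 was first in every group, at 58.2 in KO and 54.5 in WT mice at day 7, 27.6 in KO and 52.4 in WT mice at day 14, and 26.0 in KO and 43.5 in WT mice at day 21. The next in order were Pf4 and Cxcl10 in the KO mice at day 7, Cxcl10 and Pf4 in the WT mice at day 7, and Cxcl14 in both genotypes at days 14 and 21. At day 7 Pf4 was at 13.5 ± 8.54 and Cxcl10 at 12.3 ± 1.59 CPM per kilobase in KO mice, within their spread, and Cxcl10 was at 13.1 ± 2.71 and Pf4 at 9.33 ± 1.10 in WT mice. Cxcl1, Ppbp and Cxcl13 were lowest in naive mice, at or near 0.

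Cxcl1, the mouse KC chemokine and a ligand of Cxcr2, was close to undetected. It had 1 count over the 3 naive KO mice and 0 counts over the naive WT mice, where 0 counts allow up to 0.0272 CPM. After bleomycin it had 4 counts in KO and 0 in WT mice at day 7, 4 in KO and 7 in WT mice at day 14, and 0 in KO and 10 in WT mice at day 21. Its highest value in any mouse was 0.231 CPM. At this depth no difference could be assessed.

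Cxcl2, or MIP-2, another ligand of Cxcr2, was low throughout and fell in WT mice at day 7. In naive mice it was at 0.966, 1.26 and 2.03 CPM in KO and 1.51, 1.44 and 2.10 CPM in WT. At day 7 it was at 1.33, 0.870 and 0.994 CPM in KO and 0.452, 0.355 and 0.442 CPM in WT. Later it was at 0.658 to 1.38 CPM in KO and 0.711 to 0.991 CPM in WT mice at day 14, and at 0.466 to 1.22 CPM in KO and 0.415 to 1.02 CPM in WT mice at day 21. All 3 WT mice at day 7 stood below every naive WT mouse and below every KO mouse at day 7, and the KO mice at day 7 overlapped the naive KO mice. The WT change at day 7 was -2.01 on the log2 scale (SE 0.46, adjusted p = 0.0018 by edgeR, n = 3 each). In KO mice it was -0.41 at day 7 (95% interval -1.31 to 0.49), -0.48 at day 14 and -0.89 at day 21, and in WT mice it was -1.05 at day 14 and -1.11 at day 21, none of them called by edgeR. DESeq2 called the WT change at day 21 (-1.10, adjusted p = 0.040). Without KO day 21 mouse 1, the highest of its group, the KO change at day 21 was -1.39 and was called (adjusted p = 0.037).

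Cxcl3, the third of this trio, was the most clearly lowered member. Naive KO mice had 3.86, 4.45 and 6.67 CPM and naive WT mice 3.69, 3.32 and 3.46 CPM. At day 7 it was 1.46, 2.00 and 1.49 CPM in KO and 0.840, 0.443 and 1.58 CPM in WT mice, all below the naive mice. Day 14 gave 0.329, 1.47 and 2.90 CPM in KO and 1.28, 1.48 and 0.381 CPM in WT mice. At day 21 it was 1.00, 0.122 and 0.362 CPM in KO and 0.562, 0.312 and 0.898 CPM in WT mice. In both genotypes every bleomycin mouse was below every naive mouse of its genotype. The log2 change at day 21 was -3.31 in KO (SE 0.70, adjusted p = 0.0017) and -2.56 in WT mice (SE 0.69, adjusted p = 0.0074, edgeR), and both calls held under every alternative tried. The WT changes of -1.88 at day 7 and -1.74 at day 14 had adjusted p = 0.031 and 0.047. The day 7 call was lost without any 1 of the naive WT mice or WT day 7 mouse 1 or 2, and the day 14 call without any 1 of the 6 mice compared. The KO changes of -1.59 at day 7 (adjusted p = 0.058) and -1.65 at day 14 (adjusted p = 0.084) were not called, although DESeq2 called both, with adjusted p = 0.035 and 0.044. Without KO day 14 mouse 3 and KO day 21 mouse 1, a choice made after seeing the data, the KO change at day 14 was -2.45 with adjusted p = 0.011 by edgeR.

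Ppbp, platelet basic protein, whose cleaved form is a Cxcr2 ligand, had 0 counts in all 6 naive mice, so it passed the filter on low counts through bleomycin mice alone. At day 7 it was at 0.390, 1.16 and 0.110 CPM in KO and 0.969, 0 and 0.221 CPM in WT mice. It was present in all 3 KO mice and in 2 of 3 WT mice at day 7, with 63 counts in KO and 38 in WT mice. Against 3 counts over the naive group, these are at least 23.9-fold higher in KO and at least 12.4-fold higher in WT mice. Single mice held most of these counts. Without KO day 7 mouse 2, which held 44 of the 63 counts, the bound was at least 10.9-fold higher in KO mice. Without WT day 7 mouse 1, which held 30 of the 38 counts, it was at least 3.62-fold higher in WT mice, and without WT day 7 mouse 2, which had 0 counts, at least 20.8-fold. Since Ppbp was kept for its level in bleomycin mice, its test against naive is not used here. At day 14 Ppbp had 0 counts in KO and 9 in WT mice, and at day 21 it had 2 in KO and 13 in WT mice.

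Pf4, platelet factor 4, which binds heparin and lacks the ELR motif, rose most at day 7. Naive levels were 0.644, 0.628 and 0.600 CPM in KO and 0.583, 0.558 and 0.812 CPM in WT mice. At day 7 they were 6.19, 13.6 and 4.00 CPM in KO and 4.78, 5.63 and 6.05 CPM in WT mice. All 6 mice at day 7 were above all 6 naive mice. The day 14 levels were 1.85, 0.750 and 1.496 CPM in KO and 2.62, 3.44 and 3.20 CPM in WT mice. At day 21 they were 0.758, 3.82 and 1.24 CPM in KO and 5.03, 2.46 and 3.21 CPM in WT mice. In WT mice the 3 bleomycin groups stood well above the naive group, whereas some KO mice at days 14 and 21 lay just above it. The log2 change at day 7 was 3.66 in KO (SE 0.52, adjusted p = 2e-05) and 3.05 in WT mice (SE 0.52, adjusted p = 0.00012). In WT mice it was 2.22 at day 14 and 2.43 at day 21, with adjusted p = 0.0023 and 0.0011. In KO mice it was 1.12 at day 14, which was not called (adjusted p = 0.15), and 1.62 at day 21 (adjusted p = 0.026). The KO call at day 21 was lost without KO day 21 mouse 2, the highest of the 3, at 0.68 with adjusted p = 0.37, and without any 1 naive KO mouse (0.070 to 0.079). It was also lost in the fit on the 2 compared groups alone, at 1.62 with adjusted p = 0.13.

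Pf4 and Ppbp are known as platelet genes, so the platelet and megakaryocyte markers are given beside them. Among 10 such markers, those with 0 counts in all 8 groups included Gp1ba and Gp9, and Itga2b and Gp5 had 0 counts at day 7 in both genotypes, when Pf4 and Ppbp were highest. Gp6, with 6 counts, and Gp1bb, with 2 counts, were found in a single library of the 24, KO day 7 mouse 2. That mouse had the highest Pf4, at 13.6 CPM, and the highest Ppbp, at 1.16 CPM, of all mice. Treml1 and Tubb1, with 4 counts and 1 count in it, were higher in other mice. Treml1 had 13 counts in KO day 21 mouse 3 and Tubb1 15 in WT day 14 mouse 1, both with 0 counts of Ppbp. The part of platelet RNA in the Pf4 and Ppbp levels was not tested. The summed level of the 10 was lower after bleomycin, at 7.39 to 24.8 CPM, against 18.7 to 46.96 CPM in naive mice. Nearly all of this sum was Clec1b, a platelet receptor also found in myeloid cells, at 7.20 to 24.6 CPM after bleomycin and 18.6 to 46.9 CPM in naive mice.

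Cxcl9, a Cxcr3 ligand induced mainly by interferon gamma, rose in WT mice. It was at 5.86, 10.3 and 11.1 CPM in KO and 12.4, 13.7 and 12.4 CPM in WT mice at day 7, against 3.61, 6.28 and 5.10 CPM in naive KO and 5.09, 2.91 and 4.06 CPM in naive WT mice. The WT mice at day 7 were all above the naive WT mice, and the KO mice at day 7 overlapped the naive KO mice. Day 14 gave 13.4, 6.85 and 4.58 CPM in KO and 7.82, 7.49 and 7.95 CPM in WT mice, and day 21 gave 2.95, 5.16 and 5.64 CPM in KO and 10.0, 4.16 and 8.22 CPM in WT mice. The log2 change at day 7 was 0.86 in KO (SE 0.36, adjusted p = 0.068 by edgeR and 0.043 by DESeq2) and 1.68 in WT mice (SE 0.37, adjusted p = 0.0012). Without KO day 7 mouse 1, the lowest, the KO change was 1.10 and was called (adjusted p = 0.035). At day 14 the WT change of 0.95 only just passed, at adjusted p = 0.0496, and was lost without naive WT mouse 2 or 3 or any 1 WT day 14 mouse. The KO change at day 14 was 0.72 (adjusted p = 0.18), and 1.01 with adjusted p = 0.037 without KO day 14 mouse 3 and KO day 21 mouse 1. At day 21 the change was -0.12 in KO (adjusted p = 0.85) and 0.90 in WT mice (adjusted p = 0.064), and the WT change was called without WT day 21 mouse 2 (1.19, adjusted p = 0.021).

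Cxcl10, or IP-10, the other interferon-induced Cxcr3 ligand of this set, was highest at day 7 in both genotypes and lower at each later day. Naive mice had 1.66, 1.59 and 2.35 CPM in KO and 1.67, 2.03 and 3.27 CPM in WT. At day 7 it was at 12.5, 15.5 and 12.4 CPM in KO and 14.8, 11.1 and 16.9 CPM in WT mice. Day 14 gave 5.88, 3.24 and 3.41 CPM in KO and 5.77, 7.71 and 6.53 CPM in WT mice. At both days no mouse reached down to its naive group, and at day 21, with 1.71 to 2.84 CPM in KO and 2.58 to 4.15 CPM in WT mice, both genotypes overlapped it again. The log2 change was 2.85 in KO (SE 0.29, adjusted p = 3.1e-07) and 2.60 in WT mice (SE 0.29, adjusted p = 1e-06) at day 7. At day 14 Cxcl10 was 2.22-fold higher in KO (log2 1.15, adjusted p = 0.0076) and 2.83-fold higher in WT mice (adjusted p = 0.00041), and the KO call was lost without KO day 14 mouse 1, at 0.83 with adjusted p = 0.076. At day 21 it was 0.34 in KO (95% interval -0.26 to 0.94) and 0.50 in WT mice (-0.09 to 1.09), the WT change being called without naive WT mouse 3 (0.85, adjusted p = 0.049).

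Day 21 was also compared with day 7, each with its own 3 mice. In KO mice 0 members were higher and 3 lower, with 7.16% of all genes called higher and 7.73% lower. In WT mice 1 was higher and 1 lower, with 5.49% of all genes higher and 6.15% lower. Cxcl10 fell in both, by 2.51 on the log2 scale in KO (adjusted p = 1.3e-05) and by 2.10 in WT mice (adjusted p = 8.5e-05). Pf4 fell by 2.04 (adjusted p = 0.0066) and Cxcl16 by 1.16 (adjusted p = 0.0078) in KO mice, and both calls were lost without KO day 7 mouse 2, with adjusted p = 0.064 and 0.0502, and in the fit on the compared groups alone, with adjusted p = 0.14 and 0.12. Cxcl3 was -1.72 in KO mice (adjusted p = 0.096), and without KO day 21 mouse 1 it was -2.73 and called (adjusted p = 0.026). In WT mice Cxcl14 was the member that rose, and the changes were -0.62 for Pf4 (95% interval -1.59 to 0.34) and -0.33 for Cxcl16 (-0.90 to 0.25), not called.

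Cxcl13, which guides B cells into follicles through Cxcr5, was sparse, with at most 25 counts over a group. It had 3 counts in naive KO and 1 in naive WT mice, 6 in KO and 18 in WT mice at day 7, 12 in KO and 0 in WT mice at day 14, and 25 in KO and 0 in WT mice at day 21. Single mice held most of these: 18 of 18 in WT mouse 2 at day 7, 12 of 12 in KO mouse 3 at day 14, and 20 of 25 in KO mouse 1 at day 21. The last 2 are the libraries lowest in recruited markers. The summed level of 5 B cell markers was 0.108 to 5.53 CPM after bleomycin and 0.0990 to 0.350 CPM in naive mice. No comparison of Cxcl13 was called.

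Cxcl14, a chemokine expressed without stimulus in many epithelia, kept within a narrow range, from 5.75 to 18.9 CPM in all 24 mice. It was at 9.79 ± 1.73 CPM in naive KO and 10.6 ± 2.05 CPM in naive WT mice (SD, n = 3 each). Day 7 gave 9.00 ± 2.81 CPM in KO and 8.36 ± 3.41 CPM in WT mice, day 14 gave 13.7 ± 1.35 CPM in KO and 16.0 ± 2.53 CPM in WT mice, and day 21 gave 13.2 ± 3.29 CPM in KO and 16.8 ± 2.40 CPM in WT mice. The WT mice at day 21, at 18.6, 14.1 and 17.8 CPM, were all above the naive WT mice, at 12.8, 8.72 and 10.2 CPM. The WT change at day 21 was 0.67 on the log2 scale against naive (adjusted p = 0.049) and 1.01 against day 7 (adjusted p = 0.013, edgeR). The first call was lost in 6 of 11 alternatives, among them those without naive WT mouse 2 or 3 or WT day 21 mouse 1 or 3. The second was lost in 3 of 11, those without WT day 7 mouse 2 or 3 or WT day 21 mouse 1. In KO mice the change at day 21 was 0.43 (95% interval -0.10 to 0.96). At day 7 the WT change was -0.34 (adjusted p = 0.33), and without WT day 7 mouse 1 it was -0.71 and called (adjusted p = 0.037). The summed level of 9 epithelial markers was 254 to 438 CPM at day 7 and 282 to 393 CPM at day 21 in WT mice, against 1128 to 1306 CPM in naive WT mice. Most of this sum was Krt19, at 206 ± 54.4 CPM in WT mice at day 21, against 961 ± 91.4 CPM in naive WT mice. At day 21, 5 of the 9 markers were called higher in WT mice and 2 lower, with 18.8% of all tested genes higher and 13.7% lower. Krt8, Krt18, Sftpc, Sftpb and Ager, at most 0.505 CPM in any naive mouse, passed the filter on low counts through bleomycin mice. The count of higher calls is therefore not used here. Sftpc, of alveolar type II cells, was at 7.64 ± 2.90 CPM in WT mice at day 21, against 0.339 ± 0.149 CPM in naive WT mice, and Krt8 at 3.04 ± 0.909 CPM, against 0.0718 ± 0.0628 CPM. The epithelial part in Cxcl14 was not tested.

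Cxcl16 showed the largest rise among the members with counts in naive mice. It is made as a membrane protein that also takes up oxidized lipoprotein, and once shed it draws Cxcr6-bearing T and NKT cells. At day 7 it was at 174, 203 and 93.9 CPM in KO and 164, 138 and 139 CPM in WT mice, against 5.82, 6.88 and 6.65 CPM in naive KO and 6.64, 4.67 and 4.18 CPM in naive WT mice. Day 14 gave 88.9, 86.8 and 48.0 CPM in KO and 121, 122 and 182 CPM in WT mice. Day 21 gave 41.1, 88.4 and 81.0 CPM in KO and 122, 116 and 114 CPM in WT mice. The lowest bleomycin mouse was still far above the highest naive mouse in both genotypes. The log2 change was 4.61 in KO (SE 0.33, adjusted p = 5.4e-09) and 4.85 in WT mice (SE 0.33, adjusted p = 3.3e-09) at day 7. It was 3.53 in KO (SE 0.31, adjusted p = 2e-07) and 4.79 in WT mice (SE 0.33, adjusted p = 4e-09) at day 14, and 3.44 in KO (SE 0.31, adjusted p = 2e-07) and 4.52 in WT mice (SE 0.33, adjusted p = 8.9e-09) at day 21. All 6 calls held under every alternative tried.

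**Figure D2:**
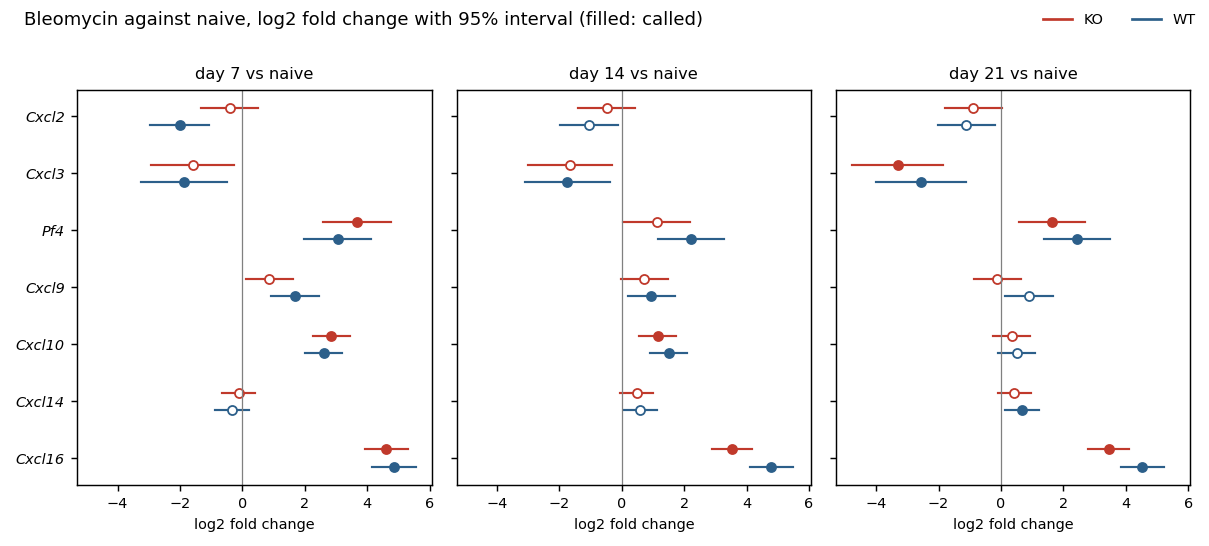
Log2 fold change of 7 CXC chemokines after bleomycin against naive mice of the same genotype (horizontal axis), KO in red above WT in blue, at days 7, 14 and 21. Points are edgeR estimates, bars their 95% intervals, and filled points are called. Cxcl16 lies between 3.44 and 4.85 in all 6 comparisons, and Cxcl3 lies below 0 in all 6.

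Between genotypes, KO and WT mice were compared at each time and over the mean of the 3 bleomycin days. Of the 9 tested members, edgeR called 0 in naive mice, with 0.546% of all tested genes called, 0 at day 7 with 0.00792%, 0 at day 14 with 0.135%, 0 at day 21 with 0.095%, and 0 over the mean of days with 0.507%. DESeq2 also called 0 in each. At an unadjusted p under 0.05 there were 0 members in naive mice, with 8.33% of all tested genes, 1 at day 7 with 4.59%, 3 at day 14 with 10%, 2 at day 21 with 9.78% and 4 over the mean of days with 13%. The counts at day 21 and over the mean of days include Cxcl13, whose p is not used, for a reason given below. The values of 1 member did not overlap between genotypes in naive mice, of 2 at day 7, of 2 at day 14 and of 1 at day 21. Over all tested genes this share was 16.8% in naive mice, 7.98% at day 7, 15.5% at day 14 and 15.8% at day 21.

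Cxcl16 had the smallest p of the family at day 14. It averaged 74.5 ± 23.0 CPM in KO and 141 ± 34.7 CPM in WT mice at day 14, and 70.2 ± 25.4 CPM in KO and 117 ± 4.34 CPM in WT mice at day 21 (SD, n = 3 each). Every KO mouse was below every WT mouse at both days, while at day 7, with 157 ± 56.6 CPM in KO and 147 ± 15.0 CPM in WT mice, the genotypes overlapped. The log2 difference was -0.93 at day 14 (95% interval -1.51 to -0.34, unadjusted p = 0.0035, adjusted p = 0.21 by edgeR) and -0.74 at day 21 (-1.32 to -0.16, unadjusted p = 0.015, adjusted p = 0.36). Over the mean of the 3 days it was -0.52 (-0.86 to -0.19, adjusted p = 0.14), and at day 7 it was 0.10 (-0.48 to 0.67). None of these passed the correction over all genes. The adjusted p ran from 0.063 to 0.81 over the alternatives at day 14.

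The recruited marker sum moved with Cxcl16. At day 14 it was 4281, 2822 and 1388 CPM in KO and 4908, 6286 and 8452 CPM in WT mice, and at day 21 it was 1528, 6275 and 3549 CPM in KO and 4615, 4717 and 4229 CPM in WT mice. The mouse with the lowest sum was the mouse with the lowest Cxcl16 in both KO groups. Without these 2 libraries, KO day 14 mouse 3 and KO day 21 mouse 1, the log2 difference in Cxcl16 was -0.69 at day 14 (adjusted p = 0.51) and -0.47 at day 21 (adjusted p = 0.52). Across the 18 bleomycin mice the log levels of Cxcl16 and the marker sum had Pearson's r = 0.85 and Spearman's rho = 0.71, with r = 0.61 without the 2 mice farthest from the median sum and r = 0.91 for deviations from group means. For Pf4 the same values were 0.62, 0.53, 0.47 and 0.65. Both measures of a point come from the same library, and the part of the markers in the genotype difference was not tested.

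**Figure D3:**
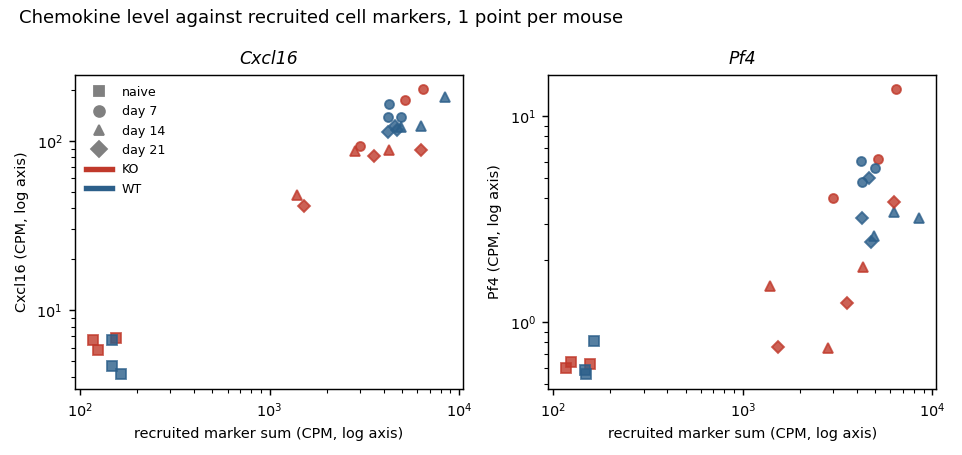
Cxcl16 (left) and Pf4 (right) in CPM against the summed level of 10 recruited monocyte and macrophage markers in CPM, both on log axes, 1 point for each of 24 mice, with KO in red and WT in blue and the shape giving the time. Naive mice lie at sums of 117 to 165 CPM, and KO day 14 mouse 3 and KO day 21 mouse 1 are the bleomycin mice farthest to the left, at 1388 and 1528 CPM.

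The other differences between genotypes at single times with an unadjusted p under 0.05 were in Cxcl2 at day 7, in Cxcl10 and Pf4 at day 14, and in Cxcl13 at day 21. Cxcl13 reached the filter's CPM level only in KO day 14 mouse 3, KO day 21 mouse 1 and WT day 7 mouse 2. Its p is not used here, since these single mice kept it among the tested genes. Cxcl2 averaged 1.06 ± 0.236 CPM in KO and 0.416 ± 0.0537 CPM in WT mice at day 7 (SD, n = 3 each), a log2 difference of 1.35 (95% interval 0.40 to 2.30, adjusted p = 1 by edgeR). Cxcl10 averaged 4.18 ± 1.48 CPM in KO and 6.67 ± 0.981 CPM in WT mice at day 14, a difference of -0.68 (-1.25 to -0.11, adjusted p = 0.38). Without KO day 14 mouse 3 and KO day 21 mouse 1 the Cxcl10 difference was -0.55 (unadjusted p = 0.086 by edgeR). Pf4 averaged 1.37 ± 0.562 CPM in KO and 3.09 ± 0.420 CPM in WT mice at day 14, a difference of -1.18 (-2.20 to -0.16, adjusted p = 0.39). Without the same mice the Pf4 difference was -1.26 (unadjusted p = 0.024 by edgeR). For Cxcl2 at day 7 and Pf4 at day 14 the genotypes did not overlap, and for Cxcl10 at day 14 they did. Cxcl13 at day 21 had 25 counts in KO and 0 in WT mice, at least 6.77-fold higher in KO mice against 3 counts over the group. Without KO day 21 mouse 1, which held 20 of the 25 counts, it was at least 2.06-fold higher. Over the mean of days, Cxcl2 had a log2 difference of 0.54 (adjusted p = 0.38) and Cxcl10 of -0.42 (adjusted p = 0.25 by edgeR). Without KO day 14 mouse 3 and KO day 21 mouse 1 they were 0.28 (unadjusted p = 0.31) and -0.425 (unadjusted p = 0.022, edgeR). Cxcl13 also had an unadjusted p under 0.05 over the mean of days (adjusted p = 0.34), which is likewise not used.

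In naive mice the 95% interval of the difference between genotypes held 0 for each tested member with counts in both genotypes. The log2 difference was 0.34 for Cxcl16 (95% interval -0.30 to 0.98), -0.11 for Cxcl14 (-0.64 to 0.42), -0.33 for Cxcl10 (-0.93 to 0.26), 0.32 for Cxcl9 (-0.44 to 1.07) and 0.52 for Cxcl3 (-0.77 to 1.80). With 3 mice a group, differences inside these intervals are not excluded.

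The difference between the KO and WT changes from naive was tested as an interaction. edgeR called 0 members at day 7, with 0.00792% of all genes called, 0 at day 14 with 0.332% and 0 at day 21 with 0.332%, and DESeq2 called 0 at each day. At an unadjusted p under 0.05 there was 1 member at each day, Cxcl2 at day 7 and Cxcl16 at days 14 and 21. Of all tested genes, 6.14% had such a p at day 7, 10.3% did at day 14, and 10.8% did at day 21. The Cxcl16 interaction was -1.26 at day 14 (95% interval -2.13 to -0.40, adjusted p = 0.22) and -1.08 at day 21 (-1.94 to -0.21, adjusted p = 0.32). The Cxcl2 interaction at day 7 was 1.60 (0.30 to 2.90, adjusted p = 0.65). These share the naive mice of both genotypes.

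**Figure D4:**
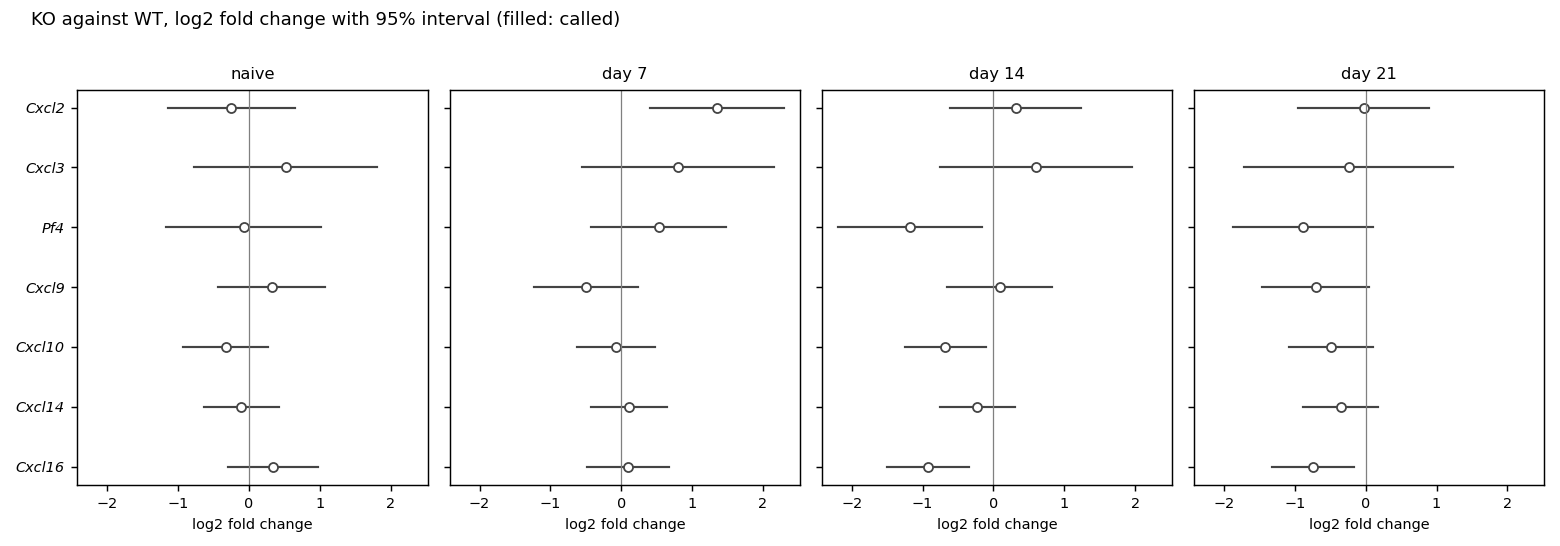
Log2 fold change of 7 CXC chemokines in KO against WT mice (horizontal axis) in naive mice and at days 7, 14 and 21. Points are edgeR estimates and bars their 95% intervals, and no point is filled because none was called. Cxcl16 lies at -0.93 at day 14 and -0.74 at day 21, and at 0.34 in naive mice.

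The genes with the most similar pattern were sought for each tested member over the 18 bleomycin mice, among genes with a mean of at least 5 CPM, as a description. For Cxcl16 these were Olfml3, Ms4a7 and Lat2, with r = 0.97, 0.97 and 0.96. For Pf4 they were Clec4a1, Aif1 and Itgam, with r = 0.94, 0.91 and 0.90. For Cxcl10 they were Cnn2, Ccnd1 and Psma1, with r = 0.95, 0.94 and 0.93, but within groups the values were 0.12, 0.35 and 0.46, whereas for Cxcl16 they were 0.92 to 0.95 within groups. For Cxcl9 they were Psme2b, Dbnl and Irf9, with r = 0.85, 0.83 and 0.83, and for Cxcl14 Serinc5, Rnf149 and Dram2, with r = 0.89, 0.88 and 0.88. Cxcl2, Cxcl3, Ppbp and Cxcl13 had few counts, and their best values did not pass 0.82. Among pairs of members, Pf4 and Cxcl16 were most alike, with r = 0.79 and rho = 0.80. Within groups their r was 0.555, below that of Ppbp and Cxcl14, at 0.63.

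The receptors of these ligands were read in the same libraries. Cxcr1 and Cxcr2, the receptors of the ELR members, were both present. Cxcr1 was at 2.84 to 28.3 CPM in KO and 7.57 to 17.3 CPM in WT bleomycin mice, against 39.1 to 57.3 CPM in naive KO and 40.2 to 46.6 CPM in naive WT mice. It fell by 2.99 on the log2 scale in KO (adjusted p = 0.00084) and by 2.04 in WT mice (adjusted p = 0.011) at day 7. By edgeR the fall was called at every day but KO day 14 (-1.67, adjusted p = 0.055), where DESeq2 called it. Cxcr2 rose in WT mice, to 26.1 ± 8.06 CPM at day 14 and 35.2 ± 8.68 CPM at day 21, against 11.0 ± 1.81 CPM in naive WT mice (adjusted p = 0.033 and 0.0060). In KO mice it was 16.7 ± 1.90 CPM at day 14 and 12.8 ± 9.99 CPM at day 21, against 11.2 ± 0.953 CPM in naive KO mice, not called. KO mice were below WT mice in Cxcr2 at each bleomycin day without overlap, with a log2 difference of -1.45 at day 21 (adjusted p = 0.21) and of -0.96 over the mean of days (adjusted p = 0.098), not called. DESeq2 called the Cxcr2 difference over the mean of days, and the share of all genes it called is not given here. Of 9 neutrophil markers measured, which include Cxcr2, Camp had 0 counts in all groups, Ngp at most 3 counts in a group and S100a9 at most 7.49 CPM in any mouse. Of 7 markers tested, 4 were called higher and 0 lower in WT mice at day 14, and 5 and 1 at day 21. In KO mice it was 2 higher and 1 lower at both days. Of all tested genes, 18.7% and 18.8% were higher and 13.4% and 13.7% lower in WT mice. In KO mice 12% and 15% were higher and 4.84% and 6.89% lower. S100a9 and Retnlg, at or near 0 CPM in naive mice, passed the filter through bleomycin mice. Both are among the 7, and no count without them is given. The counts of higher markers are therefore not compared with the shares of all genes. S100a9 averaged 4.8 CPM in WT mice at day 7. S100a8 averaged 41.1 ± 3.62 CPM at day 14 and 54.3 ± 2.39 CPM at day 21 in WT mice, against 4.88 ± 1.02 CPM in naive WT mice, and Mmp8 150 ± 38.4 and 142 ± 21.5 CPM, against 66.9 ± 23.9 CPM. Csf3r averaged 34.9 ± 5.60 and 24.0 ± 4.83 CPM at these days, against 48.3 ± 2.71 CPM in naive WT mice. The summed level of the 9 was 197 to 372 CPM in KO and 223 to 301 CPM in WT mice at day 14, and 162 to 180 CPM in KO and 232 to 276 CPM in WT mice at day 21, against 107 to 147 CPM in naive KO and 116 to 161 CPM in naive WT mice. Its part in Cxcr2 was not tested.

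Cxcr3 and Cxcr6, the T and NK cell receptors of Cxcl9, Cxcl10 and Cxcl16, were at or near 0 in naive mice. Cxcr6 had 0 counts in all 6 naive mice and 0.568 to 1.77 CPM in KO and 0.276 to 2.19 CPM in WT bleomycin mice. Cxcr3 had 3 counts in naive KO and 0 in naive WT mice, and 0.180 to 2.63 CPM in KO and 0.864 to 3.19 CPM in WT bleomycin mice. Both passed the filter on low counts through bleomycin mice, so their tests against naive are not used here. The summed T and NK cell markers were 5.41 to 44.3 CPM in KO and 12.3 to 26.2 CPM in WT bleomycin mice, against 0.845 to 1.41 CPM in naive KO and 0.455 to 1.24 CPM in naive WT mice. Cd3e, which marks T cells, was at 0.989 to 11.9 CPM in KO and 2.79 to 6.30 CPM in WT bleomycin mice, against at most 0.0462 CPM in naive mice. The part of T and NK cell RNA in the receptor levels was not tested.

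Cxcr4, the receptor of Cxcl12, was called in no comparison, with group means of 117 to 178 CPM. Cxcr5, the receptor of Cxcl13, averaged 0.127 to 0.481 CPM in the bleomycin groups, against 0.0154 CPM in naive KO and 0 CPM in naive WT mice, and also passed the filter through bleomycin mice. The atypical receptor Ackr1 had 0 counts in all mice, and Ackr3 had at most 0.362 CPM. Between genotypes edgeR called 0 of the 6 tested receptors at any time. At an unadjusted p under 0.05 there was 1 of the 6 in naive mice, 0 at day 7, 1 at day 14, 1 at day 21 and 1 over the mean of days, beside the 4.59 to 13% of all tested genes given above, and DESeq2 called none but Cxcr2 over the mean of days.

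**Figure D5:**
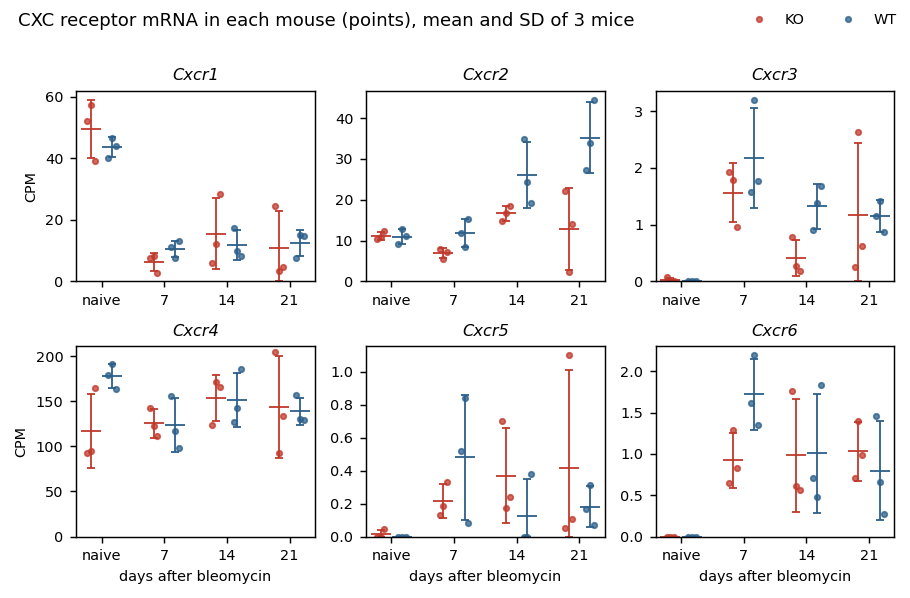
Level of 6 CXC receptor genes in CPM (vertical axis, linear, each panel with its own scale) in naive mice and 7, 14 and 21 days after bleomycin, KO in red left of WT in blue. Points are mice, wide lines are means and bars are SD of 3 mice, cut at 0. Cxcr1 is lower in every bleomycin mouse, at 2.84 to 28.3 CPM, than in any naive mouse, at 39.1 to 57.3 CPM, and Cxcr6 is at 0 in all naive mice.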

How the data were processed

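Per the labels' protocols, RNA was extracted from BAL macrophages of 24 mice and sequenced as paired ends. The authors deposited a table of estimated counts (expected counts, with 3.11 to 3.85% of entries not whole) for 24411 genes, with a column for each mouse. GEO lists a pair of sequencing runs per mouse, and whether the counts sum both is not stated. Per the submitters' processing notes, the build was mm10 and the tools included bcl2fastq, DESeq2 1.42.0 and limma 3.58.1. Aligner, counter and use of strand were not given in the sources used here. A further 24 columns in the table were not used here.

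Counts were rounded to whole numbers. Genes were kept by edgeR's filterByExpr (minimum count 10, minimum total 15), which left 12634. A gene was said to pass through bleomycin mice where fewer than 3 naive mice reached the filter's CPM level, a split added after seeing the data. One model of the 8 groups was fitted with edgeR 4.0.16 (TMM, glmQLFit, glmQLFTest, R 4.3.3), with 16 residual degrees of freedom and Benjamini-Hochberg adjustment over all genes tested at a threshold of 0.05. The 16 comparisons set each bleomycin day against naive, day 21 against day 7, KO against WT, and their interactions. CPM uses the TMM-scaled library size, correlations use log2(CPM + 1), and intervals are at 95%. Bounds against groups with no counts use 3 counts over the group, and cover counting error only. The p-values set group differences against the spread between these mice, estimated over all groups and with information shared across genes.

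The 10 members and all gene lists were chosen with earlier results of these data known. The text names all members, up to 4 genes of each pathway list by their rank in the WT bleomycin comparisons, ligands and receptors, and the 3 genes most like each member. Alternatives were DESeq2 1.42.0, median-ratio (RLE) scaling, no filter, only the compared groups, the mouse number added as a replicate block, and leaving out each mouse. The test was checked on simulated data.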

Additional observations from a re-analysis of the deposited data

How the results depend on the processing

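Of the log2 changes of single members recomputed under the alternatives, 1825 kept their side of the threshold, 42 lost a call and 23 gained one. Of those called in either fit, 0 changed direction. Changes called in neither fit were counted as kept even where their sign changed. For Cxcl3 in KO against WT over the mean of days, the log2 difference was 0.39 in the main fit and -0.21 at its lowest. Of the 42 lost calls, 34 came from leaving out mice. The 6 Cxcl16 calls against naive held throughout, and the 0 calls between genotypes and in the interactions stayed 0 in every alternative. For WT day 14 against naive, the 5 members called became 3 with the mouse number as a replicate block, Cxcl3 and Cxcl9 being lost, and 3 to 4 when single WT mice were left out. For KO day 21 against day 7, the 3 called became 1 with the compared groups alone, 5 with DESeq2, and 1 to 4 when single mice were left out, 1 without KO day 7 mouse 2. For WT day 21 against day 7, the 2 called became 1 to 2, with 1 without WT day 7 mouse 2 or 3 or WT day 21 mouse 1. For KO day 14 against naive, the 2 called became 1 to 3, with 1 without KO day 14 mouse 1, and 4 (Cxcl3, Cxcl9, Cxcl10 and Cxcl16) without KO day 14 mouse 3 and KO day 21 mouse 1 together, an alternative chosen after seeing the data. Leaving out single mice gave 3 to 5 for KO day 7, 2 to 4 for KO day 21, 5 to 6 for WT day 7 and 3 to 5 for WT day 21 against naive. Where calls were lost, the cause was not tested.

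The mouse numbers did not pair the mice: deviations of the 84 same-numbered pairs from their group means correlated from -0.64 to 0.60, with a median of -0.003, and 8 of 24 mice were most like a mouse of their own number. Apart from WT day 14, and the loss of Cxcl14 in WT mice at day 21, the replicate block changed no call. With 3 mice a group and under 2 CPM for Cxcl1, Ppbp and Cxcl13, depth limits what can be said of these genes.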

Other observations

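Genes that process these chemokines or lie upstream of them were read from lists chosen with earlier results of these data known. Of 7 processing enzymes, Dpp4 and Mmp9 passed the filter on low counts through bleomycin mice. Of the other 5, those called higher at days 7, 14 and 21 numbered 3, 4 and 3 in KO mice and 3, 5 and 5 in WT mice, with 0 lower. The shares of all tested genes called higher at these days were 19.7%, 12% and 15% in KO mice and 20.2%, 18.7% and 18.8% in WT mice. Adam10, the protease that sheds Cxcl16, rose to 342 ± 23.0 CPM in KO mice at day 7, against 201 ± 8.63 CPM in naive KO mice, and to 298 ± 17.7 CPM in WT mice, against 215 ± 9.81 CPM in naive WT mice (adjusted p = 0.00012 and 0.0070 by edgeR, SD, n = 3 each). Mmp14, a membrane-bound collagenase, was at 343 ± 118 CPM in KO mice at day 7, against 1.94 ± 0.530 CPM in naive KO mice, and at 303 ± 61.7 CPM in WT mice, against 1.77 ± 0.420 CPM in naive WT mice. Mmp12, the macrophage elastase, was at 187 ± 74.0 CPM in KO mice at day 7, against 10.8 ± 2.30 CPM in naive KO mice, and at 190 ± 47.3 CPM in WT mice, against 11.8 ± 9.16 CPM in naive WT mice. Dpp4, which trims Cxcl10, averaged 2.04 CPM in KO and 2.58 CPM in WT mice at day 7 and had 0 CPM in naive KO and 0.0066 CPM in naive WT mice.

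Irf7, a transcription factor of the interferon response, rose to 92.2 ± 27.3 CPM in KO mice at day 7, against 5.71 ± 0.616 CPM in naive KO mice, and to 81.1 ± 9.61 CPM in WT mice, against 7.08 ± 1.30 CPM in naive WT mice. Irf9, another transcription factor of that response, rose to 58.4 ± 3.82 CPM in KO mice at day 7, against 19.2 ± 1.51 CPM in naive KO mice, and to 69.4 ± 1.63 CPM in WT mice, against 22.9 ± 1.33 CPM in naive WT mice. The receptor chains Ifngr2 and Ifnar2 rose by 0.69 and 0.64 on the log2 scale in KO mice and by 0.51 and 0.40 in WT mice at day 7. Ifng itself did not pass the filter and had at most 5 counts in any group.

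Of 16 genes of the NF-kB and IL-1/TNF axis, 5 were higher and 3 lower in KO mice at day 7, 4 and 0 at day 14, and 5 and 0 at day 21. In WT mice it was 6 higher and 1 lower at day 7, 7 and 1 at day 14, and 6 and 1 at day 21. Beside the shares called higher above, 14.4%, 4.84% and 6.89% of all tested genes were called lower in KO mice at days 7, 14 and 21, and 15.3%, 13.4% and 13.7% in WT mice. Il1b rose to 25.1 ± 5.14 CPM in KO mice at day 7, against 5.19 ± 3.44 CPM in naive KO mice, and to 33.4 ± 11.8 CPM in WT mice, against 8.76 ± 2.00 CPM in naive WT mice. Tnfaip3, an inhibitor of NF-kB signalling, fell by 0.72 on the log2 scale in WT mice at day 7 (adjusted p = 0.0034) and was 0.27 in KO mice (adjusted p = 0.25). Of 6 lymphotoxin axis genes, 5 were tested, and Ltb and Tnfrsf14 passed the filter through bleomycin mice. Of the other 3, 1 was higher in KO mice and 2 in WT mice at each day, with 0 lower. Tnfsf14, or LIGHT, rose to 8.24 ± 2.23 CPM in KO mice at day 7, against 0.699 ± 0.197 CPM in naive KO mice, and to 8.96 ± 1.16 CPM in WT mice, against 0.534 ± 0.232 CPM in naive WT mice. Between genotypes edgeR called 0 genes of these 3 lists at any time or over the mean of days. At an unadjusted p under 0.05 there were 0 to 2 of the 7 processing genes, 2 to 4 of the 16 NF-kB axis genes and 0 to 1 of the 5 lymphotoxin axis genes in a comparison, with 4.59 to 13% of all tested genes. DESeq2 called Zfp36 at day 14 and Il1a and Tnfaip3 over the mean of days. In the interactions it called Tnfaip3 at days 7 and 21 and Nfkbia at day 14. The shares of all genes given here are edgeR's, and those called by DESeq2 are not given.

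Of 5 CXC ligand genes outside the 10, Cxcl5, Cxcl11, Cxcl12 and Cxcl17 did not pass the filter, with at most 20 counts over a group. Cxcl15, or lungkine, which is known from mouse lung epithelium, passed the filter through bleomycin mice. It averaged 0.218 CPM in KO and 1.81 CPM in WT mice at day 7, against 0.0077 CPM in naive KO and 0.0098 CPM in naive WT mice. All 196 WT counts at day 7 were in WT day 7 mouse 3, the library with the highest Sftpc.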
